A study of Mus musculus with 6 samples.

Results

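Genes of fatty acid synthesis, elongation and desaturation were followed in fat from WT mice and mice without cavin-3, a caveolar coat protein. The set was fixed as a list of 35 genes by name, and 32 of them had a probe set annotated with that 1 symbol, out of 19937 genes so measured. G6pdx, Acsl1 and Acsl3 had none and were not analysed here. For genes with more than 1 such probe set, the brightest on average over the 6 arrays stood for the gene.

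The arrays were 6 Affymetrix Mouse Gene 1.0 ST arrays, 1 for each of 3 WT and 3 cavin-3 knockout (KO) mice, littermates of 10 weeks on chow that had no food for 6 hours before the tissue was taken. In the knockout, made from 1 C57BL/6N ES cell clone of the KOMP resource injected into C57BL/6 blastocysts, all cells lack cavin-3 and carry a lacZ/neo marker at its locus. The WT mice carry no other allele by the labels, and no source used here names the fat depot. All values below are RMA intensities taken to log2, and the comparison tests whether loss of cavin-3 moves these genes.

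Adipose tissue makes fatty acids from acetyl-CoA. Citrate leaves the mitochondrion and is cleaved to acetyl-CoA in the cytosol, acetyl-CoA carboxylase makes malonyl-CoA, and fatty acid synthase joins these units into palmitate with the reducing power of NADPH. Elongases and desaturases then turn palmitate into longer and unsaturated acids. SREBP-1c (Srebf1) and ChREBP (Mlxipl) drive transcription of most of these enzymes when insulin and glucose are high, and fasting lowers it.

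Some arrays stood apart from their group. The study's methods name male mice only, but Xist, the RNA of the inactive X chromosome, reached 11.14 (log2) for WT replicate 2 and 11.34 for KO replicate 3, with 3.70 to 6.30 on the other 4 arrays, and Y-linked Uty was at 3.36 and 3.21 against 7.89 to 8.14. Cavin-3 itself followed the labels, with a mean of 10.46 ± 0.43 for WT and 6.90 ± 0.19 for KO (SD over 3 mice each). The 17 adipocyte markers measured of 19 listed lay above the median signal of every array, with list means of 11.84 to 12.03. The median intensity of an array was 67.1 to 70.8, and the number of arrays limits the precision. Results below are therefore also given without WT replicate 2 and KO replicate 3, and also without WT replicate 2 alone. Xist gives no ground to leave out WT replicate 2 alone. That array was highest for 17 of the 32 genes, so results without it depend on the values of these same genes. An unadjusted p from that smaller comparison is therefore a description only.

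No gene of the set passed a test of the difference between genotypes. In limma 0 of the 32 had an adjusted p under 0.05 (background 0.00575% of 34760 probe sets), none had an unadjusted p under 0.05 (0.838% of all genes) in limma or in the methods' t-test on log2 or linear values, and for none did the 3 WT values lie clear of the 3 KO values (4.61% of all genes). The smallest unadjusted p was 0.0939, that of Elovl4, and every adjusted p rounded to 1.0 in limma. The differences were from -0.64 for Acly to 0.17 for Elovl7 on the log2 scale, and 5 of the 32, Acly, Scd2, Elovl4, Pdhb and Me1, were over 0.25 in size, all lower in KO (5.71% of all genes were over 0.25 in either direction). Without WT replicate 2 these differences were 0.07 for Acly, -0.29 for Scd2, -0.20 for Elovl4, -0.07 for Pdhb and 0.17 for Me1. For each of the 32, arrays of 1 genotype lay farther apart than the genotype means did. The share of all genes for which this held was not taken, so it does not mark out the set.

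By direction, 20 of the 32 were lower in KO (49.7% of all genes were). The median log2 difference of all 32 was -0.06, against 0.0009 over all genes. The lean depended on WT replicate 2. Without WT replicate 2 the number lower was 14 and the median 0.06, and without WT replicate 2 and KO replicate 3 it was 5 of 32 and 0.11. The share and median over all genes were not taken without these arrays, so these values have no background to be set against. A median standard error of 0.22 among the 32 genes, against 0.12 over all genes, shows that they varied more between arrays than most. Their median log2 range over the 6 arrays was 0.82, against 0.38 over all genes, and 14 of the 32 had a range above 1 (7.65% of all genes).

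**Figure D1:**
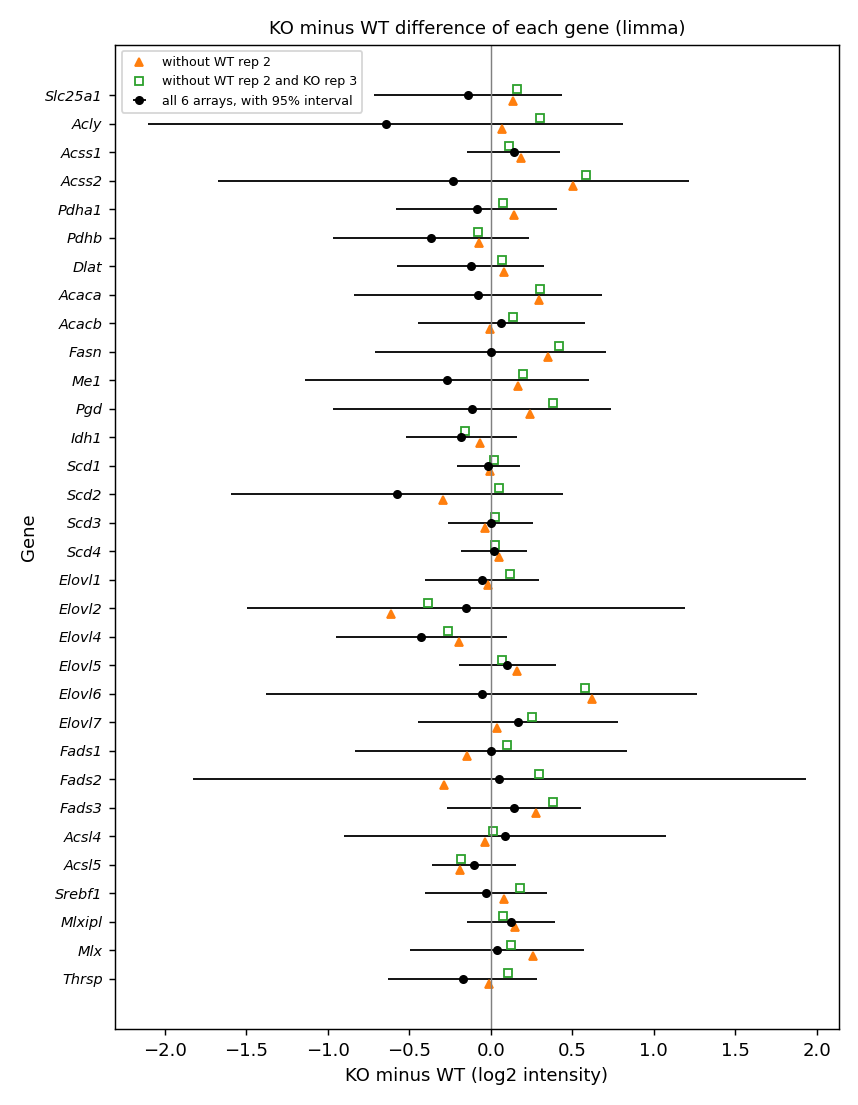
KO minus WT difference (x axis, log2 intensity) of the 32 genes in limma, with 95% intervals from all 6 arrays (black), without WT replicate 2 (orange triangles) and without WT replicate 2 and KO replicate 3 (green squares). Every interval spans 0, and the points of Acly, Acss2, Fasn, Elovl6, Me1 and Acaca lie above 0 without WT replicate 2.

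The set varied between arrays in 2 ways. WT replicate 2 had the highest signal for 17 of the 32 genes (22.1% of all genes and 21.5% of those with a mean signal above the median gene), and in 14 it stood over 0.5 above the median of the other 5 arrays (2.9% of all genes). In 5 of them, Acly, Acss2, Me1, Scd2 and Elovl6, the gap was over 1 (0.732% of all genes). By contrast, KO replicate 2 and WT replicate 1 were both above the other 4 arrays for 5 genes (8.49% of all genes), Fads1, Fads2, Acsl4, Elovl2 and Scd3. For the first 4 of these the gap was over 0.5 (1.77% of all genes). Neither way separates WT from KO. In tissue RNA, more cells of a type and more RNA per cell cannot be told apart.

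**Figure D2:**
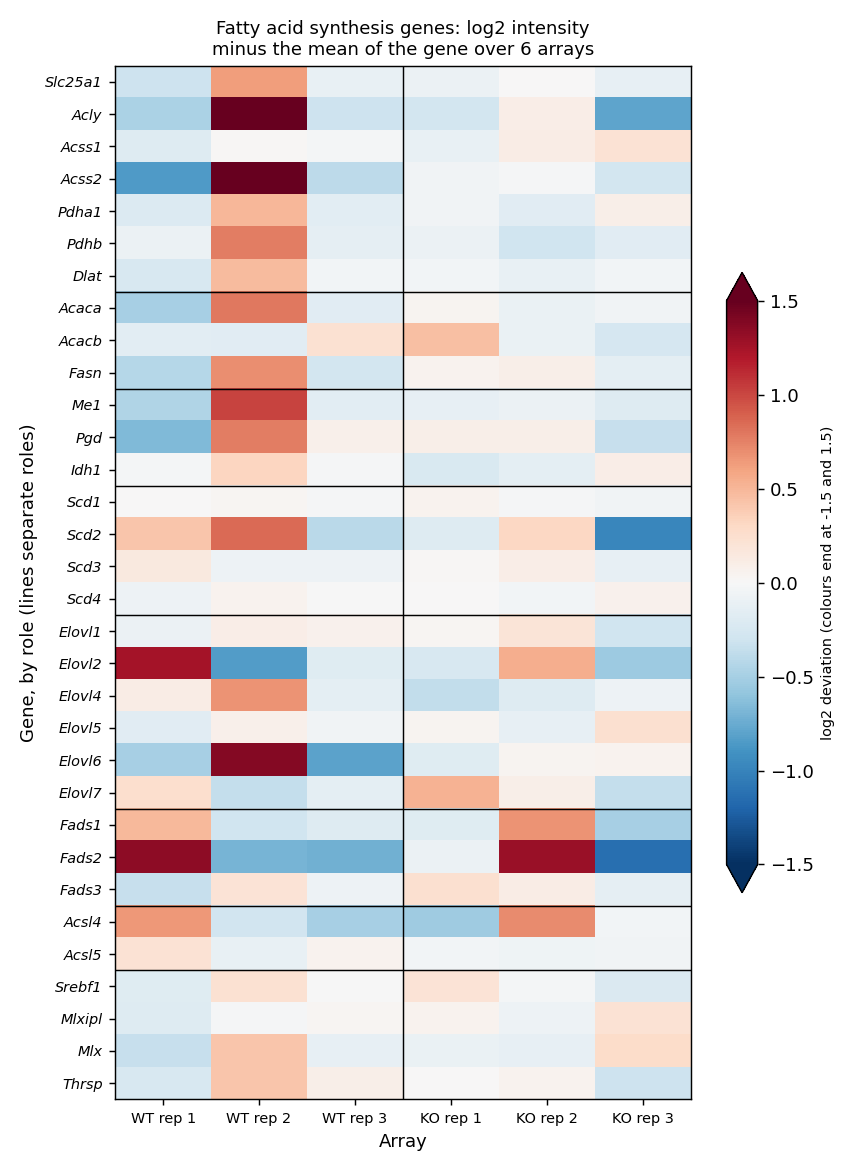
Log2 intensity of each of the 32 genes minus its mean over the 6 arrays (colour), by role (rows) and array (columns, WT left of the line and KO right of it). Red cells run down the WT replicate 2 column from Slc25a1 to Idh1, except at Acss1 and Acacb, while Fads1, Fads2, Acsl4 and Elovl2 are red in WT replicate 1 and KO replicate 2.

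The upstream sequences of 3 genes from the first pattern (Acly, Acss2 and Elovl6, those with the highest peaks in WT replicate 2) and of Fads2 from the second are shown so that both can be compared at the level of DNA. Each is the 250 bases before the RefSeq start (GRCm38.p6), 5′ to 3′ on the strand of the gene. Capitals mark the CCAAT box, a motif bound by the factor NF-Y, on either strand. They also mark the GC box, spelled GGGCGG and bound by Sp1, on either strand.
Acly, chr11:100528001-100528250, minus strand: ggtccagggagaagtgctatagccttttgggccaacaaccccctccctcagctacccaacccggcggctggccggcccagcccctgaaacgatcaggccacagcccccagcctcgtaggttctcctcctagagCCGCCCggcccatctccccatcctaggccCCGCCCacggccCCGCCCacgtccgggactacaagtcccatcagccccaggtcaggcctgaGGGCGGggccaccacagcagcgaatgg
Acss2, chr2:155517793-155518042, plus strand: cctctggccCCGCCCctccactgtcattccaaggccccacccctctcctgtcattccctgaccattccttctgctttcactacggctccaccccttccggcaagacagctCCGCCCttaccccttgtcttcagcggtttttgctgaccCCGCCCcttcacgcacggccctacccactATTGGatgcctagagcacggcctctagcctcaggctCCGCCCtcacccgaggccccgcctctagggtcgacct
Elovl6, chr3:129532136-129532385, plus strand: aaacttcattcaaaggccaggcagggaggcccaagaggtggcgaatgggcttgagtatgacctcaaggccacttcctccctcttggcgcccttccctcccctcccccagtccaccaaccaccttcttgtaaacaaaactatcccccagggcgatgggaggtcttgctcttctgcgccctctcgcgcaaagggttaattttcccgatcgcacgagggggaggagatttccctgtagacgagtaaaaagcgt
Fads2, chr19:10101504-10101753, minus strand: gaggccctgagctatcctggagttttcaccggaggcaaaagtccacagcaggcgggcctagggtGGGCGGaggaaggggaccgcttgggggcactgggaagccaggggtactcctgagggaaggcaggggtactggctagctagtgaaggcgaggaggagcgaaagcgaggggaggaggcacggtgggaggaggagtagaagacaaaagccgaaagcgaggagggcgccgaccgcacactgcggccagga
The GC box letters occurred 4 times for Acly, 4 times for Acss2 and 1 time for Fads2, and no marked letters were found in the Elovl6 window. Acss2 held the CCAAT box letters once, as ATTGG. Of the 32 genes, 29 had a window in the table used. The GC box was in 18 of the 29 and in 32.7% of all 32851 windows, and the CCAAT box in 16 and 33.8%. The E-box CACGTG, which ChREBP and Mlx can bind, was in 4 (Elovl5, Mlx, Mlxipl and Slc25a1) and 6.02% of all windows. A sterol regulatory element written TCACNCCAC, bound by SREBPs, was in 1 (Mlxipl) and 1.05%. Both strands were searched, overlaps between motifs were allowed, and a gene with several windows counted once if any held the letters. The percentages count single windows, so the counts of genes and the percentages are not like for like. Whether the letters are enriched in the set was not tested. A match is a description of the letters and not a bound site.

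Of the genes for acetyl-CoA supply, 6 of 7 had their highest signal in WT replicate 2 and none passed the test. Slc25a1 carries citrate out of the mitochondrion, and its log2 signal was 10.82, 11.76 and 11.03 in WT and 11.04, 11.13 and 11.01 in KO. WT replicate 2 was highest and the 3 KO arrays lay within the WT range (0.907-fold in KO, 95% interval 0.608 to 1.35). Acly, ATP citrate lyase, which cleaves citrate to cytosolic acetyl-CoA, was at 9.24, 11.46 and 9.40 in WT and 9.44, 9.81 and 8.92 in KO. The WT replicate 2 level was 4.15 times the median of the other 5 arrays. The KO level of Acly was 0.640-fold of WT (0.233 to 1.76, unadjusted p = 0.325 and adjusted p = 1.0 in limma), and the log2 difference went from -0.64 to 0.07 without WT replicate 2.

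Acss2 makes acetyl-CoA from acetate in the cytosol, and its signal was 8.34, 10.77 and 8.79 in WT and 9.14, 9.16 and 8.91 in KO. The 3 KO values lay above WT replicates 1 and 3 and below WT replicate 2, which was 3.63 times the median of the others. Its log2 difference was -0.23, and it was 0.50 without WT replicate 2 (unadjusted p = 0.0302, adjusted p = 1.0 in limma). The mitochondrial enzyme Acss1, with 6.91 to 7.12 in WT and 6.99 to 7.32 in KO, did not share this peak. The pyruvate dehydrogenase subunits, which make mitochondrial acetyl-CoA from pyruvate, did: Pdhb, the E1 beta subunit, was at 8.79, 9.64 and 8.73 in WT and 8.79, 8.57 and 8.71 in KO. Pdha1, the E1 alpha subunit, reached 10.81 in WT replicate 2 against 10.10 to 10.40 elsewhere, and Dlat, the E2 subunit, 10.14 against 9.42 to 9.63.

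The 2 main enzymes of palmitate synthesis had equal or nearly equal means in WT and KO. Acaca, the cytosolic acetyl-CoA carboxylase of lipogenesis, was at 10.68, 11.96 and 11.00 in WT and 11.21, 11.07 and 11.12 in KO. Fasn, fatty acid synthase, was at 11.80, 12.93 and 11.95 in WT and 12.28, 12.32 and 12.08 in KO. Both were highest in WT replicate 2, at 1.85 times for Acaca and 1.79 times for Fasn of the median of the other arrays, and lowest in WT replicate 1. With all 6 arrays the Fasn means were equal, with a log2 difference of -0.0016 (standard error 0.29, 95% interval of the fold 0.610 to 1.63). Without WT replicate 2 the Fasn difference was 0.35 (unadjusted p = 0.0310, adjusted p = 1.0 in limma), each KO array then being above both WT arrays. Acacb, whose malonyl-CoA restrains fatty acid entry into mitochondria, did not follow Acaca and had 9.61 in WT replicate 2 within a range of 9.53 to 10.23.

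The 3 measured NADPH-producing enzymes were all highest in WT replicate 2. Me1, cytosolic malic enzyme, was at 10.61, 12.07 and 10.90 in WT and 10.94, 10.97 and 10.87 in KO. Pgd, of the pentose phosphate pathway, was at 9.93, 11.36 and 10.67 in WT and 10.69, 10.68 and 10.25 in KO. WT replicate 2 stood at 2.24 and 1.61 times the median of the others for Me1 and Pgd, and WT replicate 1 was lowest for both. Idh1, cytosolic isocitrate dehydrogenase, spanned 10.78 to 11.33 with the same array highest. In KO the differences of Me1, Pgd and Idh1 were -0.27, -0.11 and -0.18 on the log2 scale, with standard errors of 0.36, 0.35 and 0.14.

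**Figure D3:**
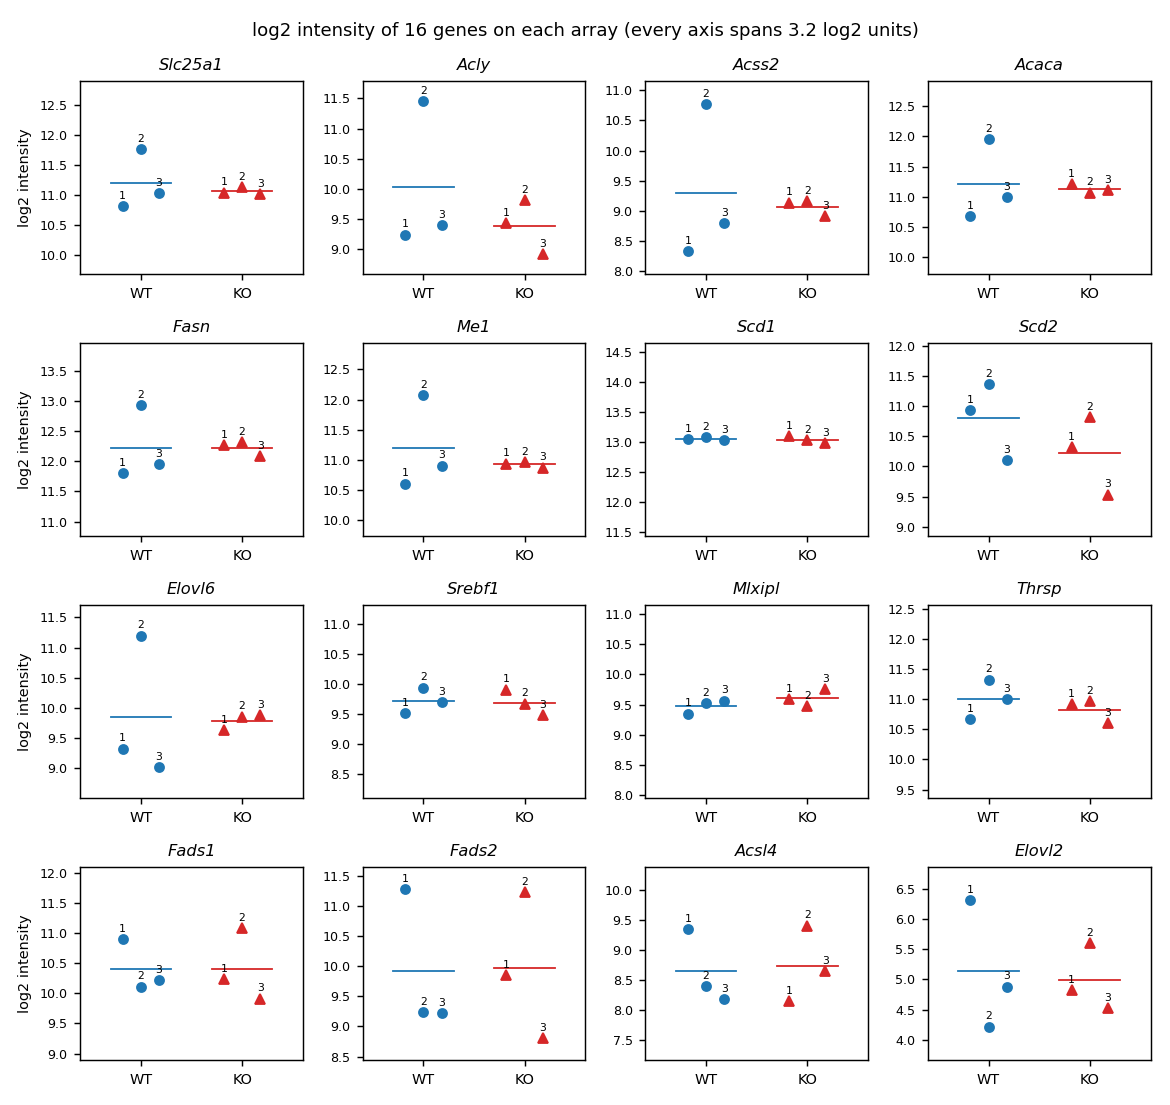
Log2 intensity (y axis) of 16 genes on each array, WT as blue circles and KO as red triangles, with the replicate number above each point and a line at each group mean. WT replicate 2 is highest for 10 of the 12 genes in the upper 3 rows, Scd1 and Mlxipl being the others, and WT replicate 1 and KO replicate 2 are highest for the 4 genes in the last row.

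The stearoyl-CoA desaturases put the first double bond into palmitate and stearate, and none of the 4 passed the test. Scd1, the main adipose form, was at 13.05, 13.08 and 13.03 in WT and 13.10, 13.03 and 12.99 in KO. It hardly varied, with a range of 0.11, and its signal was close to the highest of any probe set on each array (13.32 to 13.34), where the scale leaves little room; how far this limited its range was not tested. Scd2 was at 10.93, 11.36 and 10.11 in WT and 10.32, 10.82 and 9.53 in KO. WT replicates 1 and 2 and KO replicate 2 were high and KO replicate 3 was lowest, so the groups overlapped, and its level in KO was 0.671-fold (0.331 to 1.36, unadjusted p = 0.220 and adjusted p = 1.0 in limma). The log2 difference of Scd2 was -0.58 with all arrays, -0.29 without WT replicate 2 and 0.05 without KO replicate 3 as well. Scd3 and Scd4 lay below the median signal of all 6 arrays, at 5.21 to 5.48 and 4.63 to 4.77. The Scd genes are close copies, and cross-hybridisation among them was not tested.

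Of the 6 elongases, Elovl6 and the dim Elovl4 stood highest in WT replicate 2. Elovl6, which lengthens palmitate to stearate, was at 9.33, 11.20 and 9.02 in WT and 9.64, 9.86 and 9.88 in KO. It had the WT replicate 2 peak, at 2.95 times the median of the other arrays, and the KO arrays lay between that peak and the other WT values. Its log2 difference was -0.06 with all 6 arrays and 0.62 without WT replicate 2 (unadjusted p = 0.00636, adjusted p = 1.0 in limma). Elovl6, Acss2 and Fasn were the 3 of the 32 genes with an unadjusted p under 0.05 in limma in that smaller comparison. They had one also without KO replicate 3, together with Fads3. The share of all genes with such a p was not taken for either comparison, so these counts cannot be weighed. WT replicate 2, the array left out, was the highest for Elovl6, Acss2 and Fasn, and leaving it out raises their KO minus WT difference.

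The other elongases did not share the height of that peak. Elovl1, of saturated very long chains, was at 9.46 to 9.95, and Elovl5, of polyunsaturated chains, at 10.31 to 10.72. Elovl4, which makes the longest chains in retina and skin, was dim at 4.68, 5.25 and 4.42 in WT and 4.20, 4.38 and 4.49 in KO, and its 0.743-fold level in KO (0.517 to 1.07) was the nearest to a call. Elovl2, of polyunsaturated chains, was at 6.31, 4.22 and 4.88 in WT and 4.82, 5.60 and 4.52 in KO, above the array median on 1 array alone. Elovl7 was at 5.62 to 6.49, with KO replicate 1 highest.

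The desaturases of polyunsaturated acids and Acsl4 differed between arrays of the same genotype far more than between genotypes. Fads2, the delta-6 desaturase, was at 11.28, 9.24 and 9.22 in WT and 9.86, 11.23 and 8.81 in KO. WT replicate 1 and KO replicate 2 stood at least 1.37 above the other 4 arrays, and the group means differed by 0.05. Fads1, the delta-5 desaturase beside it on chromosome 19, was at 10.90, 10.11 and 10.21 in WT and 10.23, 11.08 and 9.91 in KO, with the same 2 arrays highest. Acsl4, which activates arachidonic acid, was at 9.34, 8.40 and 8.19 in WT and 8.15, 9.40 and 8.64 in KO. Fads3, the third gene of the cluster, did not follow Fads1 and Fads2 and ran from 11.07 in WT replicate 1 to 11.65 in KO replicate 1. Acsl5 spanned 8.62 to 8.95, with WT replicate 1 highest and WT replicate 2 lowest.

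None of the 4 regulators passed the test. Srebf1, which encodes SREBP-1, was at 9.52, 9.94 and 9.70 in WT and 9.91, 9.68 and 9.48 in KO. Mlxipl, ChREBP, was at 9.35, 9.53 and 9.57 in WT and 9.59, 9.47 and 9.75 in KO. The array probes used here do not separate isoforms of either. Neither had a peak in WT replicate 2 like that of Acly: Srebf1 was 1.20 and Mlxipl 0.973 times the median of the other arrays there. Thrsp, a lipogenic protein that responds to thyroid hormone and carbohydrate, was at 10.67, 11.32 and 11.01 in WT and 10.92, 10.97 and 10.60 in KO, with the groups overlapping. Mlx, the partner of ChREBP, was at 8.45, 9.22 and 8.67 in WT and 8.70, 8.68 and 9.08 in KO, highest in WT replicate 2 and KO replicate 3. The KO level was 0.979-fold (0.755 to 1.27) for Srebf1, 1.09-fold (0.903 to 1.32) for Mlxipl, 1.03-fold (0.708 to 1.49) for Mlx and 0.887-fold (0.645 to 1.22) for Thrsp.

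Across the 6 arrays, 10 of the other 31 genes had a Pearson r above 0.8 with Fasn (5.28% of all genes did), and 1 of the 10, Acss2, kept it without WT replicates 1 and 2, the arrays farthest from the median of Fasn. Acss2 had r = 0.983 (exact permutation p = 0.00139, adjusted over the 31 relations 0.0431) and rho = 1.0 (exact permutation p = 0.00278, adjusted 0.0861), with r = 0.998 without those 2 arrays. Slc25a1 had r = 0.961 (exact permutation p = 0.00278, adjusted 0.0431) and rho = 0.943 (exact permutation p = 0.0167, adjusted 0.129), and r fell to 0.704 without them. Me1 had r = 0.947 (exact permutation p = 0.00417, adjusted 0.0431) and rho = 0.943 (exact permutation p = 0.0167, adjusted 0.129), and r was 0.771 without them. Acly had r = 0.908 (exact permutation p = 0.0306, adjusted 0.135) and rho = 0.829 (exact permutation p = 0.0583, adjusted 0.258), and r was 0.564 without them. Of the 10 relations, 9 fell below 0.8 without WT replicates 1 and 2, which leaves 4 arrays. Without WT replicate 2 alone, 5 of the 31 genes had r above 0.8, namely Acss2 (0.965), Fads3 (0.914), Slc25a1 (0.867), Me1 (0.843) and Acaca (0.839). Fads2 had r = -0.28 and Acsl4 r = -0.27 with Fasn (exact permutation p = 0.643 and 0.649, adjusted 0.698 for both, with rho = -0.09 and -0.03 at 0.919 and 1.0, both adjusted to 1.0), and without the 2 arrays r was 0.792 and 0.524.

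Marker genes of other cell types also moved between arrays. All 18 skeletal muscle markers had their top 2 values on the Xist-high arrays, WT replicate 2 and KO replicate 3, with list means of 8.59 and 8.61 against 5.90 to 6.61. Over all genes, 16.6% were higher on both of these arrays than on the other 4. This held for 10 of the 14 measured brown and beige adipocyte markers (list means 7.19 and 7.29 against 6.05 to 6.38). Among them was Ucp1, the uncoupling protein of brown fat, at 8.56 and 8.75 against 4.31 to 4.53. It did not hold for Ppargc1a, Ebf2, Slc27a2 and Fabp3, and Slc27a2 was lowest in WT replicate 2 (5.27) and highest in KO replicate 1 (7.24). Of the 32 genes, 7 were higher on both Xist-high arrays than on the other 4 (Pdha1, Dlat, Idh1, Scd4, Elovl5, Elovl6 and Mlx). This is 21.9%, near the 16.6% of all genes, so it does not mark out the set. The gap was only 0.008 for Dlat, 0.019 for Elovl6, 0.035 for Elovl5 and 0.047 for Scd4. In KO replicate 3, Elovl6 was second highest at 9.88, while Acly was at 8.92, Acss2 at 8.91, Fasn at 12.08 and Scd2 at 9.53, below 11.46, 10.77, 12.93 and 11.36 in WT replicate 2. The part of muscle and brown fat in these values was not tested. The adipocyte list mean was 12.03 in WT replicate 2 and 11.95 in KO replicate 3. The sebaceous and epidermal list, 9 of 11 genes measured, had its highest mean in WT replicate 2 (6.26). KO replicate 3 was next at 5.76, with 5.26 to 5.56 elsewhere. Of the 9, 5 were highest in WT replicate 2 (22.1% of all genes). Higher on both Xist-high arrays than on the other 4 were 6 of the 9 (16.6% of all genes). None was above the array median on every array. The cornified envelope gene Sprr1a of this list was at 9.80 in WT replicate 2 and 5.21 to 5.89 on the others. The part of such cells in the lipogenic peak was not tested.

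Some markers of other tissues shared the Fads2 pattern. Over all genes, 8.49% were higher in both WT replicate 1 and KO replicate 2 than on the other 4 arrays. The epididymis epithelium list of 12 genes averaged 5.36 for WT replicate 1 and 5.17 for KO replicate 2 against 4.40 to 4.52. In both, 4 of the 12 were highest, among them Adam7 (10.33 and 9.19 against 3.67 to 4.51) and Crisp4 (7.04 and 6.56 against 2.63 to 2.87). Spag11a, also among the 4, was above the others by only 0.004. Others went the other way: Lcn9 (4.11 and 4.18 against 4.24 to 4.45) and Defb25 (5.96 and 5.99 against 6.07 to 6.38) were lowest on these 2 arrays. None of the 12 lay above the array median on every array. The mammary epithelium list of 16 measured genes had means of 6.12 and 5.98 there against 4.82 to 5.29, with 7 of 16 highest in both. Among these was Elf5 (7.19 and 7.16 against 4.52 to 4.97). Others of the list were lowest on these 2 arrays. They were the milk protein genes Csn2 (4.05 and 4.17 against 4.26 to 4.47) and Csn1s1 (2.666 and 2.719 against 2.722 to 2.797), and Wfdc18 (4.16 and 3.94 against 4.19 to 4.54). Krt5 was highest in WT replicate 2, at 8.23. The part of these cell types in the Fads1, Fads2, Acsl4 and Elovl2 values was not tested.

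**Figure D4:**
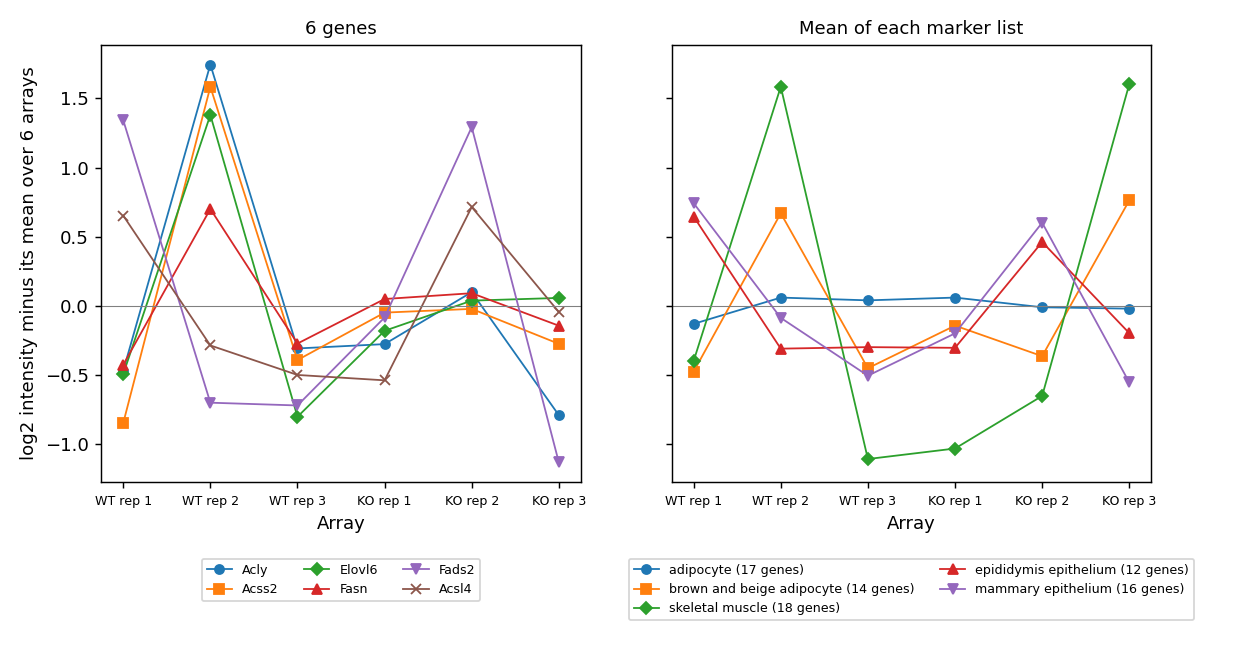
Log2 intensity minus its mean over the 6 arrays (y axis) for 6 genes (left) and for the mean of 5 marker lists (right) on each array (x axis), with lines that only join the points. Acly, Acss2, Elovl6 and Fasn peak in WT replicate 2, skeletal muscle and brown fat markers in WT replicate 2 and KO replicate 3, and Fads2, Acsl4 and the epididymis and mammary lists in WT replicate 1 and KO replicate 2.

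Beyond the set, 63 of 66 other genes of the same pathways were measured: the elongation cycle, pyruvate, citrate and NADPH supply, the control of SREBP and ChREBP, and mitochondrial fatty acid synthesis. In limma 0 had an adjusted p under 0.05, none had an unadjusted p under 0.05 in limma or the methods' t-test, and 39 of the 63 were lower in KO, with a median log2 difference of -0.03. The groups lay clear of each other for 1 of the 63 (4.61% of all genes were clear in either direction, and 2.53% were clear and lower in KO). This was Aco1, cytosolic aconitase, at 10.77, 10.95 and 10.86 in WT and 10.76, 10.74 and 10.70 in KO. The 4 genes with the smallest unadjusted p were Pdk2, a kinase that inhibits pyruvate dehydrogenase, Aco1, H6pd, which makes NADPH in the endoplasmic reticulum, and Olah, a thioesterase. Their log2 differences were 0.22 for Pdk2, -0.13 for Aco1, 0.26 for H6pd and -0.14 for Olah, none of them a call. The signal peaked in WT replicate 2 for 32 of the 63 (22.1% of all genes), so the direction of these differences also rests on that array. Insig1, a SREBP target that holds SREBPs back in the endoplasmic reticulum, was at 11.21 there against 10.08 to 10.32, and Tkt, transketolase of the pentose phosphate pathway, at 10.37 against 8.92 to 9.56.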

How the data were processed

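RNA of 6 adipose samples was amplified by the authors into cDNA, labelled with biotin, hybridised to Mouse Gene 1.0 ST arrays and processed with GenePattern modules. The deposited values are linear intensities per probe set, and the submitters' notes name RMA (background correction, quantile normalization and summary of probes) without a version. No source used here names the build behind the probe sets.

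On log2 intensities, the KO minus WT difference was fitted with lmFit and eBayes of limma 3.58.1 in R 4.3.3, without covariates and with Benjamini-Hochberg adjustment over all 34760 probe sets. Intervals cover 95%. Of the probe sets, 21640 had 1 gene symbol, 1321 had several and 11799 were not listed; 21553 of the first matched RefSeq by gene ID and 0 names changed. Scanner files were not used here, so background could not be judged. All 35 listed genes were accounted for. Values on every array are given for the route from citrate to oleate, its regulators, genes with an unadjusted p under 0.05, without overlap or with a log2 range above 1, and of the other pathway genes the 4 with the smallest p were named. Insig1, Tkt, Adam7, Crisp4, Spag11a, Lcn9, Defb25, Elf5, Csn2, Csn1s1, Wfdc18, Krt5, Sprr1a, Ucp1, Ppargc1a, Ebf2, Slc27a2 and Fabp3 were chosen after their values were seen. Further marker lists (liver, macrophage and endothelial) had means of 6.67 to 7.92, 8.61 to 9.13 and 9.28 to 9.71. Members and lists were chosen with earlier results of these data known. The procedure was tested on simulated data. Correlations used exact permutation tests (scipy 1.17.1). Alternatives were a replicate block, array weights, robust variance with a trend, centring on medians, quantile normalization, the methods' t-test (log2 or linear), averaging a gene's probe sets, dropping dim or multi-symbol probe sets, and omitting single arrays or both Xist-high arrays.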

Additional observations from a re-analysis of the deposited data

How the results depend on the processing

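None of the 32 genes passed an adjusted p of 0.05 under any alternative. The median log2 difference of the 32 was -0.14 to 0.06 without single arrays and 0.11 without WT replicate 2 and KO replicate 3. The median of the 32 on each array had a spread between replicates of 0.18 (pooled SD). WT replicate 2 itself adds to that spread, which is not an error of the KO minus WT difference. Leaving out single arrays left 14 to 25 genes lower in KO, and without both WT replicate 2 and KO replicate 3 there were 5. The share of all genes lower in KO was not taken for these settings. Over all probe sets, 2 passed, against 0 with either form of the methods' t-test, with the replicate block or without those 2 arrays, 1 with single-symbol probe sets or the mean over probe sets of a gene, and 1 to 2 without single arrays. Replicate numbers did not pair the samples: deviations from the genotype means of same-numbered arrays had r of -0.15, -0.37 and -0.09 over probe sets, while WT replicate 1 with KO replicate 2, WT replicate 2 with KO replicate 3 and WT replicate 3 with KO replicate 1 had 0.52, 0.48 and 0.37. The replicate block left the 32 at 0 calls, with an unadjusted p of 0.00269 in limma for Scd2 (adjusted p 1.0). Elovl4 (-0.61) and, of the other pathway genes, Pdk2 (0.33) had unadjusted p of 0.0274 and 0.0288 without WT replicate 3 (adjusted p 1.0 in limma). On linear values the log2 difference turned for Scd3 -0.00035. With quantile normalization the log2 difference turned for Fasn 0.014, Scd1 0.013 and Scd3 -0.0010. With median centring the log2 difference turned for Scd3 -0.00049 and Fads1 -0.00071. With array weights the log2 difference turned for Fasn 0.13, Scd1 0.0080, Elovl2 0.076, Elovl6 0.24 and Srebf1 0.027. Without WT replicate 2 and KO replicate 3 the log2 difference turned for Slc25a1 0.16, Acly 0.30, Acss2 0.58, Pdha1 0.075, Dlat 0.070, Acaca 0.30, Fasn 0.42, Me1 0.20, Pgd 0.38, Scd1 0.022, Scd2 0.052, Elovl1 0.12, Elovl6 0.58, Srebf1 0.18 and Thrsp 0.10. Leaving out single arrays turned Acaca (-0.35 to 0.29), Acacb (-0.14 to 0.21), Acly (-1.04 to 0.066), Acsl4 (-0.25 to 0.44), Acss2 (-0.71 to 0.50), Dlat (-0.28 to 0.083), Elovl1 (-0.17 to 0.082), Elovl2 (-0.61 to 0.43), Elovl6 (-0.47 to 0.62), Elovl7 (-0.048 to 0.39), Fads1 (-0.34 to 0.25), Fads2 (-0.58 to 0.74), Fasn (-0.21 to 0.35), Me1 (-0.56 to 0.17), Mlx (-0.13 to 0.26), Pdha1 (-0.21 to 0.14), Pgd (-0.48 to 0.24), Scd1 (-0.043 to 0.011), Scd3 (-0.050 to 0.074), Scd4 (-0.014 to 0.052), Slc25a1 (-0.33 to 0.14) and Srebf1 (-0.14 to 0.079), and gave -0.92 to -0.23 for Scd2, -0.61 to -0.20 for Elovl4 and -0.53 to -0.07 for Pdhb. The cause of these turns was not tested. Without dim probe sets, 27 of the 32 genes were left. With 3 arrays a group, the 95% intervals allow changes such as 0.233 to 1.76-fold for Acly.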
